A study of Mus musculus with 23 samples.

Results

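The comparison described here set the hippocampus of 4 vehicle-infused 3xTg mice (3xTg-D) against that of 4 vehicle-infused wild-type mice (WT-D), all of 10 months, across all genes counted. Its members were the 4 count columns of each of these groups, 8 of the 23 libraries of the series, and the lines that name no gene were left out. The 3xTg animals hold human APPSwe and tauP301L transgenes. The WT animals carry the strain label C57BL/6J x 129S1, and the study's methods name them as strain controls (B6129SF2/J). Per the methods, the 3xTg and WT stocks were both purchased, and all mice were bred in-house under the same housing. Both groups received an infusion into the lateral ventricle for 28 days of artificial cerebrospinal fluid with 0.8% DMSO, so the pump, the surgery and the solvent were common to both. According to the study's methods all mice were female, and both transgenes are driven by a neuron-specific Thy1.2 element.

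The libraries were made from polyadenylated RNA of whole hippocampus and held 13.9M to 17.6M reads counted in genes each. Of 55335 genes in the table, 23215 to 23891 were detected per library. Values are given as CPM, the reads of a gene set against all gene reads of its library after TMM scaling. This unit does not correct for gene length, so levels are compared between libraries and not between genes. Across genes, libraries of a group correlated with r between 0.991 and 0.996, and no pair of libraries was identical. Markers of hippocampal neurons were present in every library, summing to 1213 to 1429 CPM per WT-D library and to 1135 to 1382 CPM per 3xTg-D library. The library of 3xTg-D replicate 3 stood apart from the rest of its group in several cell type markers. Its summed blood markers were at 4.78 CPM, against 37.3 to 67.3 CPM in the other 3 libraries of the group, and its summed myelin markers were the lowest of the 8 libraries at 4404 CPM. Where leaving out 1 library ended the call of a named gene, the library and the adjusted p without it are given.

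In brain tissue, microglia and astrocytes make much of the complement, the interferon-induced proteins and the antigen presentation machinery. Type I interferon acts through a receptor that activates STAT2, which acts with IRF9 at interferon-stimulated response elements in promoters of target genes. C1q and C4 belong to the classical complement pathway, which tags material, synapses included, for uptake by microglia. Neurons respond to synaptic activity by inducing early genes and secreted peptides such as VGF, and inhibitory interneurons are recognised by calcium-binding proteins and neuropeptides.

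Of 15528 genes that passed the filter on low counts, 216 (1.39%) differed between 3xTg-D and WT-D at an adjusted p under 0.05 in edgeR's quasi-likelihood test, and these are the genes referred to below as called, or as having risen or fallen. Of them, 99 rose (0.638% of genes tested) and 117 fell (0.753%). The fold changes were moderate for most of these, with a median size of 0.89 on the log2 scale, 41 genes over 1 and 59 genes under -1. The WT-D and 3xTg-D libraries did not overlap for 211 of the 216, and for 1237 of all genes tested (7.97%). By annotation 170 of them have a protein-coding transcript, 23 are long non-coding RNAs and 19 are pseudogenes. Sequence shared with another gene, or annotation as a pseudogene, makes the count of 58 of them uncertain. At an unadjusted p under 0.05, 971 genes were higher (6.25%) and 1067 lower (6.87%) in 3xTg-D, and the lists of genes below are read against these shares. The lists and their members were chosen with earlier results of these data known. Counts and medians over a list are therefore descriptions and no independent test. The median log2 fold change over all genes tested was -0.003. At an unadjusted p under 0.01, the threshold the study used, 769 genes (4.95%) differed. The plot of fold change against level shows called genes on both sides of 0.

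**Figure D1:**
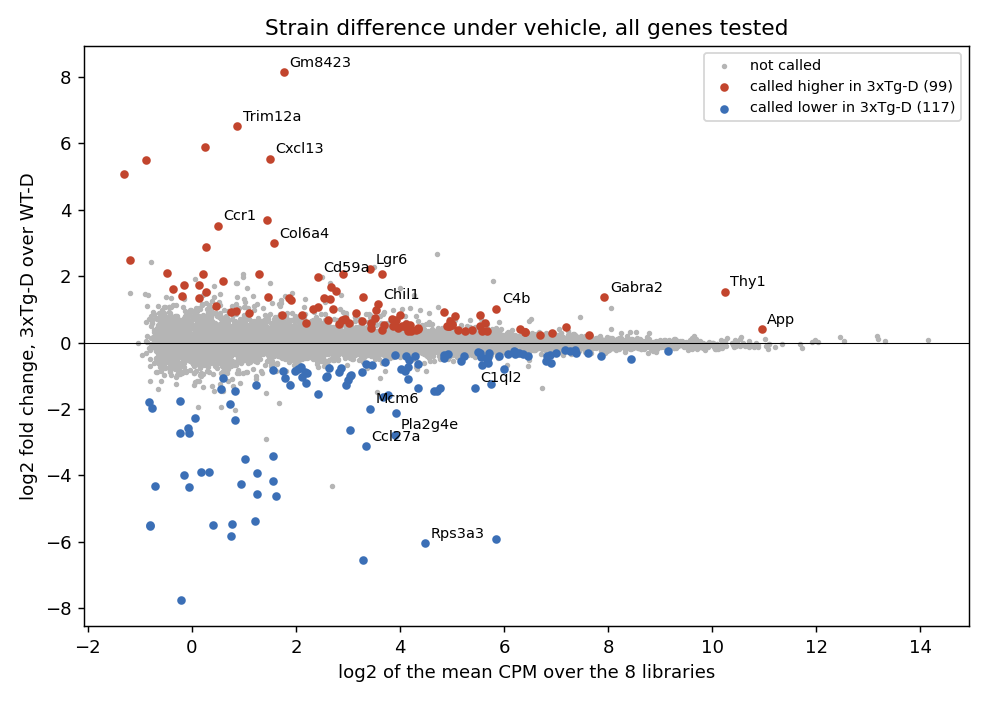
Log2 fold change of 3xTg-D over WT-D (vertical axis) against log2 of the mean CPM (horizontal axis) for the 15528 genes tested, n = 4 libraries a group. The 99 genes called higher and the 117 called lower are coloured, and labelled genes are described in the text.

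The first question was whether the labelled genotype could be seen at mouse loci that the model involves. Thy1, the cell surface glycoprotein whose regulatory element drives both transgenes, lies at chr9:44043384-44048579 (GRCm38). Its level was 602, 626, 625 and 637 CPM in the 4 WT-D libraries and 1969, 1947, 1546 and 1702 CPM in the 4 3xTg-D libraries (log2 fold change 1.52, SE 0.08, adjusted p = 5.74e-07). The groups were far apart, and all 4 libraries labelled 3xTg-D carried the higher level. App, the amyloid precursor protein, read 2335, 2413, 2099 and 2152 CPM in the 3xTg-D libraries and 1739, 1712, 1648 and 1682 CPM in the WT-D libraries (log2 fold change 0.41, SE 0.06, adjusted p = 0.00323), again with no overlap. The reads were assigned to the mouse genome only. A count at App or Mapt can therefore hold reads from a human transgene where the sequences are alike. The study's methods name the Thy1.2 element as mouse, so a count at Thy1 can hold reads of transgene transcripts that include it. The share of such reads at these loci was not tested. Mapt, which encodes tau, was at 489, 548, 512 and 529.9 CPM in WT-D and, in 3xTg-D, 544, 544, 476 and 536 CPM, and its log2 fold change of 0.01 was not called (adjusted p = 0.958). Among 21 genes of APP processing, all tested, 0 were called by edgeR and 3 were lower at an unadjusted p under 0.05. DESeq2's likelihood ratio test called 0 of them.

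Innate immune genes lay higher in 3xTg-D. Of 43 interferon response genes 38 passed the filter, and every one of the 38 had a log2 fold change above 0, against 49.0% of all genes tested. Only Stat2 and Parp14 of the 38 were called, whereas 30 were higher at an unadjusted p under 0.05 (6.25% over all genes) and 0 were lower. In 8 of the 38 the groups did not overlap, against 3.61% of all genes in that direction. The median log2 fold change of the list was 0.68. DESeq2's likelihood ratio test called 7 of the 38.

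Promoter sequence was examined because these genes are induced through a known element. The 250 bases before the start of each gene were taken from RefSeq (GRCm38.p6) and searched on both strands for the core of the interferon-stimulated response element, a GAAA pair separated by any 2 bases. Of 31 interferon response genes with a promoter in RefSeq, 13 (41.9%) held it, against 344 of 11509 tested genes (2.99%) and 978 of 32851 promoters in all (2.98%). In the MHC class I list, 3 of 15 genes held it, namely B2m, H2-T22 and H2-T23. In the complement list 1 of 9 did, Cd59a. Among reactive astrocyte genes 3 of 16 (18.8%) held it, and among genes induced by neuronal activity, which lay slightly lower in 3xTg-D, 6 of 26 (23.1%) did. Gbp2 belongs to the interferon list and to the reactive astrocyte list, and counts in the share of each. The match describes letters only and was not tested as a binding site. The interferon list was chosen from genes known to respond to interferon, which are induced through this element. Its share therefore follows from the choice of the list and does not bear on the levels in 3xTg-D. The promoters of the called gene Stat2, of Ifit1 and Igtp as leading members of the list, of B2m for MHC class I and of Cd59a for complement are printed from 5' to 3' on the strand of the gene, with the matched bases in capitals. Capitals that start with TTTC are a match on the other strand.
Stat2 promoter, chr10:128270248-128270497, plus strand: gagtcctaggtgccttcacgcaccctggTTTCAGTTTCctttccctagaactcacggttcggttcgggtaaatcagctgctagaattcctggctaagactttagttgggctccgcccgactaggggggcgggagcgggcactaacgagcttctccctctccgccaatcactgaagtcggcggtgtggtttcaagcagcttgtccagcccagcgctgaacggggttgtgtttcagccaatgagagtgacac
Ifit1 promoter, chr19:34640639-34640888, plus strand: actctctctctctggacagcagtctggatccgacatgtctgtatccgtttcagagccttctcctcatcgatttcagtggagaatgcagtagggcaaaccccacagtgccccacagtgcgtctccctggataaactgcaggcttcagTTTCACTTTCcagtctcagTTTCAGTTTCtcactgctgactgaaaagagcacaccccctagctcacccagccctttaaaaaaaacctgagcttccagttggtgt
Igtp promoter, chr11:58199306-58199555, plus strand: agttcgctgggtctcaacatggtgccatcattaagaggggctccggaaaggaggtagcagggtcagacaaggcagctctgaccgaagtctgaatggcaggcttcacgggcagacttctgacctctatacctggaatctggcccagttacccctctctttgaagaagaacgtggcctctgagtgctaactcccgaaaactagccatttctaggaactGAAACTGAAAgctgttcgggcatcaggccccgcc
B2m promoter, chr2:122147437-122147686, plus strand: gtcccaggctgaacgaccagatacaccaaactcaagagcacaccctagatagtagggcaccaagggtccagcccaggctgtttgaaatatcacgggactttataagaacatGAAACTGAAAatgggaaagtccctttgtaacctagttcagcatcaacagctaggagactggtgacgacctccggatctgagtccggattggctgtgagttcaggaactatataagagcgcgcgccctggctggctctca
Cd59a promoter, chr2:104095551-104095800, plus strand: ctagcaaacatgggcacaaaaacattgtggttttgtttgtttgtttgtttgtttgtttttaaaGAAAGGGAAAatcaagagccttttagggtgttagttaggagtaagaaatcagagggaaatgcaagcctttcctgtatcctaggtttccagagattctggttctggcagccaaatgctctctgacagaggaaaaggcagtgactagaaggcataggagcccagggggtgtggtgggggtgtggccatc
In Ifit1 the matches lay 104 and 85 bases before the start, in Igtp 34, in B2m 139, in Cd59a 187 and in Stat2 222.

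Stat2, which carries the interferon signal to the nucleus, was at 28.7, 36.4, 40.6 and 37.7 CPM in 3xTg-D, against 25.6, 23.9, 24.2 and 27.6 CPM in WT-D (log2 fold change 0.50, SE 0.10, adjusted p = 0.0287). Its groups did not overlap, although 3xTg-D replicate 1 was just above the highest WT-D library. Parp14, an ADP-ribosyltransferase induced by interferon, read 4.20, 3.21, 2.40 and 4.002 CPM in WT-D against 4.18, 7.54, 8.37 and 8.76 CPM in 3xTg-D (log2 fold change 1.06, SE 0.23, adjusted p = 0.0499). Here 3xTg-D replicate 1 lay within the WT-D range and the other 3 libraries lay above it. Leaving out any 1 of 3xTg-D replicates 2, 3 and 4 or WT-D replicates 1, 2 and 3 ended the call of Stat2 (adjusted p = 0.0506 to 0.0883). The call of Parp14 was lost when any 1 of 3xTg-D replicates 2, 3 and 4 or WT-D replicates 1, 2, 3 and 4 was omitted (adjusted p = 0.0621 to 0.132).

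Members of the list that were not called had log2 fold changes on either side of those of Stat2 and Parp14. Ifit1, which binds viral RNA, was at 2.81, 9.96, 4.66 and 18.9 CPM in the 3xTg-D libraries and 3.44, 1.61, 2.07 and 2.03 CPM in the WT-D libraries (log2 fold change 1.97, SE 0.50, adjusted p = 0.0914). Oasl2, an oligoadenylate synthetase-like protein, was at 4.08, 3.21, 3.54 and 4.50 CPM in WT-D, compared with 2.96, 15.9, 5.68 and 50.2 CPM in 3xTg-D (log2 fold change 2.27, SE 0.69, adjusted p = 0.161). Both were highest in 3xTg-D replicate 4 and within the WT-D range, or below it, in 3xTg-D replicate 1. Usp18, which removes ISG15 and restrains interferon signalling, read 0.816, 0.670, 0.668 and 0.862 CPM in the WT-D libraries and 0.937, 3.54, 1.38 and 6.997 CPM in those of 3xTg-D (log2 fold change 2.06, SE 0.56, adjusted p = 0.109). Igtp, an immunity-related GTPase, read 2.86, 2.21, 2.004 and 2.83 CPM for WT-D and 2.96, 4.59, 4.84 and 6.01 CPM for 3xTg-D (log2 fold change 0.89, SE 0.22, adjusted p = 0.0765). These 2 genes did not overlap between the groups, but their lowest 3xTg-D value, that of replicate 1, stood just above the highest WT-D value.

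Summed over the list, interferon response genes reached 227 to 252 CPM in the WT-D libraries. In 3xTg-D they reached 243, 374, 329 and 574 CPM in replicates 1 to 4, so that replicate 1 lay within the WT-D range and replicate 4 was the highest. Without 3xTg-D replicate 1, the list had 9 called members, and leaving out each library in turn gave 0 to 9 called members and 22 to 33 members at an unadjusted p under 0.05. Summed homeostatic microglia markers were at 530, 521, 410 and 632 CPM in 3xTg-D against 395.9 to 478 CPM in WT-D. Replicate 4 was the highest in both sums, whereas replicate 1 was the lowest of its group in the interferon sum and above the WT-D range in the microglia sum. The part of these cells in the interferon values was not tested. In bulk tissue, fewer cells of a type and less RNA per cell cannot be told apart, nor can more cells and more RNA per cell.

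**Figure D2:**
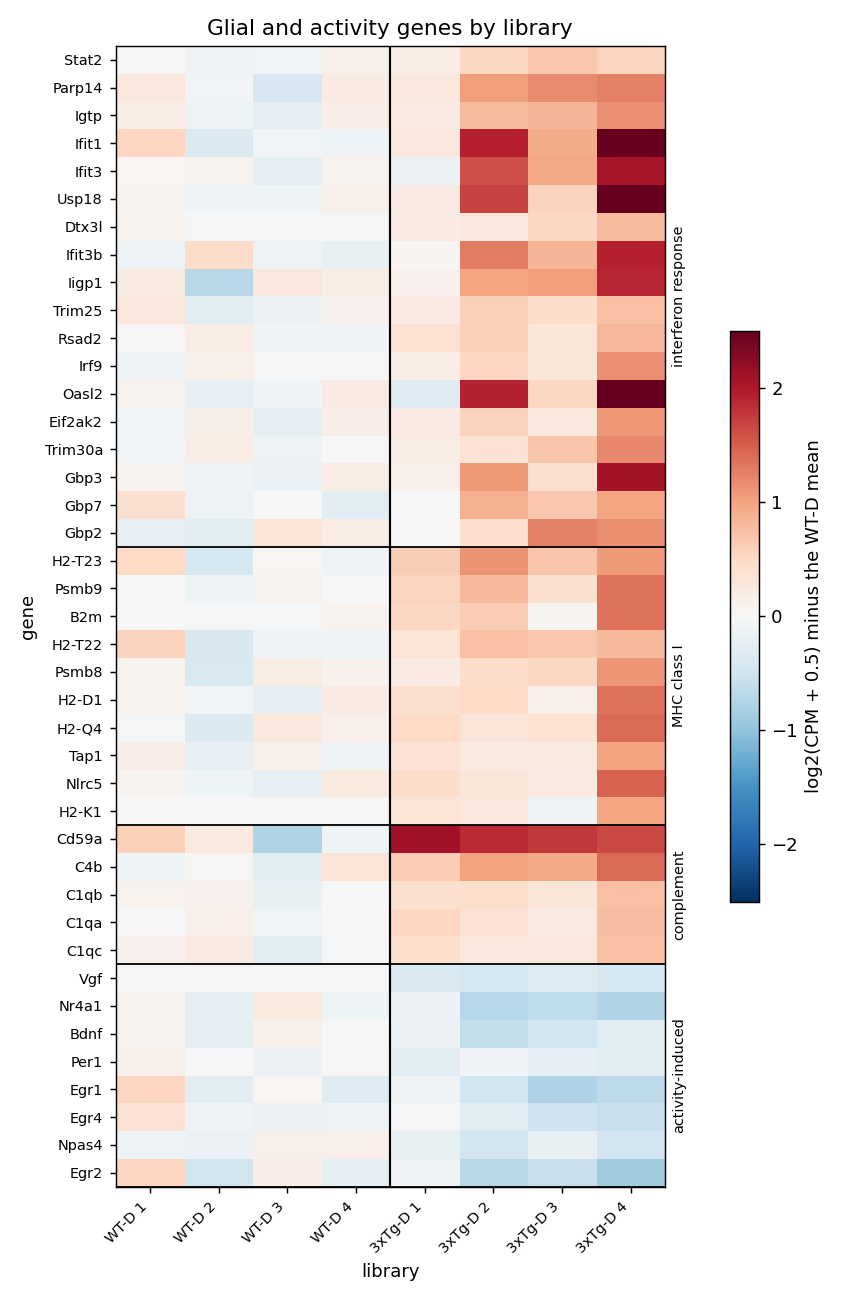
Genes of the interferon, MHC class I, complement and activity lists (rows) in the 8 libraries (columns), coloured by log2(CPM + 0.5) minus the mean of the WT-D libraries. In many interferon genes 3xTg-D replicate 1 is close to WT-D and 3xTg-D replicate 4 is the highest.

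Antigen presentation genes of MHC class I lay higher in 3xTg-D as well, with 17 of 18 members above 0 and a median log2 fold change of 0.59. None of the 18 was called by edgeR, and 12 were higher at an unadjusted p under 0.05, while DESeq2 called 1. B2m, the light chain of class I molecules, was at 68.9, 66.5, 66.2 and 73.2 CPM in WT-D and, in 3xTg-D, 98.2, 106, 72.2 and 177 CPM (log2 fold change 0.72, SE 0.20, adjusted p = 0.129). The lowest 3xTg-D library, replicate 3, was within the WT-D range. H2-D1, a classical class I heavy chain, was at 27.1, 24.3, 21.6 and 29.2 CPM in WT-D, compared with 33.5, 35.9, 27.6 and 65.8 CPM in 3xTg-D (log2 fold change 0.67, SE 0.22, adjusted p = 0.208), and its sequence is close to that of other class I genes. H2-T23, the non-classical molecule Qa-1, read 5.01, 2.34, 3.54 and 3.08 CPM in the WT-D libraries and 5.48, 7.999, 5.80 and 7.63 CPM in those of 3xTg-D (log2 fold change 0.93, SE 0.21, adjusted p = 0.0613). Psmb9, a subunit of the immunoproteasome, read 0.933, 0.804, 1.002 and 0.923 CPM for WT-D and 1.59, 1.97, 1.38 and 3.11 CPM for 3xTg-D (log2 fold change 1.12, SE 0.28, adjusted p = 0.0866). These last 2 genes did not overlap between the groups. Of 6 class II genes tested, 0 were called by edgeR or DESeq2 and 2 were higher at an unadjusted p under 0.05. Cd74, the invariant chain, was at 4.83, 4.33, 2.69 and 3.89 CPM in 3xTg-D, against 3.38, 1.21, 1.40 and 3.14 CPM in WT-D, with overlap.

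Of the complement list, 4 of 17 tested members were called higher and 0 lower (0.638% and 0.753% over all genes). The median log2 fold change of the list was 0.17, with 14 members above 0 and 3 below. C1qa, a chain of the recognition molecule C1q, was at 24.3, 27.1, 23.6 and 24.6 CPM in WT-D against 36.2, 32.2, 29.2 and 42.7 CPM in 3xTg-D (log2 fold change 0.49, SE 0.11, adjusted p = 0.0442). C1qb read 26.99, 27.4, 22.2 and 25.6 CPM in WT-D, compared with 33.5, 34.8, 31.6 and 43.1 CPM in 3xTg-D (log2 fold change 0.48, SE 0.10, adjusted p = 0.0404). The third chain, C1qc, was not called, and went from 26.5, 28.5, 20.5 and 23.9 CPM in WT-D to 33.8, 29.9, 30.3 and 41.7 CPM in 3xTg-D (log2 fold change 0.45, SE 0.12, adjusted p = 0.113). In each of the 3 chains every 3xTg-D library was above every WT-D library, and 3xTg-D replicate 4 was the highest. C1qa was no longer called once any 1 of 3xTg-D replicates 1, 2 and 4 or WT-D replicates 1, 2, 3 and 4 was left out (adjusted p = 0.0512 to 0.111). Leaving out any 1 of 3xTg-D replicates 1, 2 and 4 or WT-D replicates 1, 2, 3 and 4 ended the call of C1qb (adjusted p = 0.0521 to 0.0946).

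C4b, the component cleaved by the C1 complex, was at 58.8, 76.2, 72.7 and 102 CPM in the 3xTg-D libraries and 34.9, 38.3, 31.4 and 48.02 CPM in the WT-D libraries (log2 fold change 1.02, SE 0.16, adjusted p = 0.00559). C4b shares sequence with its neighbour C4a, so reads may be split between these genes and its value is uncertain, and C4a itself was not called (log2 fold change 0.10). Cd59a, which blocks assembly of the membrane attack complex, rose most in the list, from 3.32, 2.48, 1.002 and 1.85 CPM in WT-D to 10.2, 8.72, 8.07 and 7.42 CPM in 3xTg-D (log2 fold change 1.98, SE 0.25, adjusted p = 0.00137). Its groups were well apart. Leaving out single libraries left 2 to 4 members of the list called.

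Markers of microglia that are high at rest were above 0 in 13 of 14 cases, with a median log2 fold change of 0.31. By edgeR 0 of the 14 were called and 8 were higher at an unadjusted p under 0.05, and DESeq2 called 2. Selplg, a selectin ligand, was at 14.9, 24.4, 14.4 and 16.2 CPM in WT-D and, in 3xTg-D, 25.2, 25.4, 21.9 and 29.2 CPM (log2 fold change 0.54, SE 0.15, adjusted p = 0.129). Csf1r, the receptor that microglia need to survive, was at 80.4, 93.2, 72.8 and 88.1 CPM in the WT-D libraries and 100.1, 103, 83.6 and 120.5 CPM in those of 3xTg-D (log2 fold change 0.28, SE 0.10, adjusted p = 0.252). Both overlapped between the groups, with 3xTg-D replicate 3 the lowest of its group. The count at an unadjusted p under 0.05 went from 2 to 12 of 14 as single libraries were left out.

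Genes of disease-associated microglia lay close to 0 as a list, with a median log2 fold change of 0.07 over 20 tested members, 0 called by edgeR and 3 higher at an unadjusted p under 0.05. DESeq2 called 1. Spp1, osteopontin, was at 5.48, 8.92, 20.6 and 3.89 CPM in 3xTg-D, against 2.74, 3.01, 2.47 and 3.14 CPM in WT-D (log2 fold change 1.79, SE 0.44, adjusted p = 0.0765). Every 3xTg-D library was above WT-D, but replicate 3 alone carried most of the difference. Tyrobp, a signalling adaptor, was at 9.85, 9.11, 6.61 and 7.02 CPM for WT-D and 11.2, 11.2, 8.85 and 13.9 CPM for 3xTg-D (log2 fold change 0.46, SE 0.16, adjusted p = 0.23). Of 13 genes of lymphocytes and neutrophils 1 passed the filter, Ighm, which encodes the heavy chain of immunoglobulin M. It read 13.1, 8.84, 8.35 and 12.99 CPM in WT-D against 25.8, 25.1, 10.1 and 27.4 CPM in 3xTg-D (log2 fold change 1.02, SE 0.27, adjusted p = 0.0989), with 3xTg-D replicate 3 within the WT-D range, and the neutrophil marker Ly6g was at 0 in all 8 libraries.

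Chemokines held the gene with the smallest p of the comparison. Ccl27a, a chemokine gene at chr4:41769467-41774247, fell from 17.7, 18.5, 18.4 and 18.04 CPM in WT-D to 2.16, 1.90, 2.03 and 2.19 CPM in 3xTg-D (log2 fold change -3.13, SE 0.10, adjusted p = 1.22e-08). The spread within each group was small beside the gap. Ccl27a shares sequence with annotated copies, and its count is uncertain for that reason. Cxcl13, which attracts B cells, was near the detection limit in WT-D at 0.0583, 0.067, 0.0668 and 0.246 CPM and read 3.82, 4.07, 2.15 and 12.2 CPM in 3xTg-D (log2 fold change 5.54, SE 0.74, adjusted p = 0.00198). Cxcl14 was at 69.4, 70.7, 67.1 and 71.3 CPM in WT-D, compared with 59.98, 59.7, 58.9 and 65.02 CPM in 3xTg-D, and was not called (log2 fold change -0.19, adjusted p = 0.0989).

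Several other immune genes were among the 216 and outside the lists, and the following were chosen after their values were seen. Trim12a and Trim30d, tripartite motif genes of a cluster on chromosome 7, were at or near 0 in WT-D. Trim12a read 2.88, 3.61, 4.36 and 3.67 CPM in the 3xTg-D libraries and 0, 0, 0.0668 and 0.0616 CPM in the WT-D libraries, at least 19.1-fold higher when WT-D was set to the floor of 3 counts per library. Trim30d read 0.117, 0, 0 and 0 CPM in the WT-D libraries and 1.95, 2.75, 1.79 and 2.898 CPM in those of 3xTg-D, at least 12.3-fold higher. Trim34a of the same cluster also rose (log2 fold change 2.87), and its count is uncertain through sequence shared with another gene. Irgm2, an immunity-related GTPase, was at 2.80, 2.48, 3.88 and 3.33 CPM in WT-D and, in 3xTg-D, 4.47, 6.16, 5.26 and 6.36 CPM (log2 fold change 0.83, SE 0.17, adjusted p = 0.037). Parp12, an interferon-induced ADP-ribosyltransferase, was at 10.3, 9.78, 9.89 and 12.1 CPM for WT-D and 12.6, 15.7, 15.4 and 17.03 CPM for 3xTg-D (log2 fold change 0.53, SE 0.11, adjusted p = 0.0377). Ccr1, a chemokine receptor, rose from 0.233, 0.134, 0 and 0.493 CPM in WT-D to 1.44, 2.88, 3.41 and 2.69 CPM in 3xTg-D (log2 fold change 3.52, SE 0.48, adjusted p = 0.00213). In each of these genes the groups did not overlap. The call of Irgm2 was lost when any 1 of 3xTg-D replicates 2, 3 and 4 or WT-D replicates 1, 2 and 4 was omitted (adjusted p = 0.0512 to 0.121). Parp12 was no longer called once any 1 of 3xTg-D replicates 2, 3 and 4 or WT-D replicates 1, 2 and 3 was left out (adjusted p = 0.0623 to 0.113).

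Reactive astrocyte genes were higher in part. Of 24 genes 18 passed the filter, 16 of them above 0, with a median log2 fold change of 0.47, and 10 were higher and 1 lower at an unadjusted p under 0.05. Gbp2 is also in the interferon list, so these lists are not fully separate. Osmr, the receptor of oncostatin M, was the single called member, at 11.5, 12.4, 19.1 and 14.6 CPM in 3xTg-D, against 9.15, 8.91, 7.15 and 9.48 CPM in WT-D (log2 fold change 0.73, SE 0.16, adjusted p = 0.0431). Vim, the intermediate filament vimentin, was at 43.1, 43.1, 35.4 and 52.5 CPM in WT-D, compared with 58.1, 59.3, 63.3 and 54.99 CPM in 3xTg-D (log2 fold change 0.44, SE 0.10, adjusted p = 0.0582). In both genes every 3xTg-D library was above every WT-D library. Leaving out any 1 of 3xTg-D replicates 2, 3 and 4 or WT-D replicates 1, 2, 3 and 4 ended the call of Osmr (adjusted p = 0.0517 to 0.0983). Gfap, the intermediate filament that marks astrocytes, read 379, 393.2, 302 and 508 CPM in the WT-D libraries and 487, 452, 458 and 535 CPM in those of 3xTg-D (log2 fold change 0.29, SE 0.12, adjusted p = 0.342), and its groups overlapped through WT-D replicate 4. Chil1, a chitinase-like protein of astrocytes chosen after its values were seen, rose from 7.87, 7.23, 6.68 and 7.70 CPM in WT-D to 20.3, 14.8, 11.2 and 19.7 CPM in 3xTg-D (log2 fold change 1.15, SE 0.17, adjusted p = 0.00401).

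Serpina3n, a protease inhibitor of reactive astrocytes, was 1 of the 2 members below 0. It read 51.4, 46.1, 247 and 266 CPM in WT-D against 59.9, 46.3, 63.8 and 67.7 CPM in 3xTg-D (log2 fold change -1.36, SE 0.49, adjusted p = 0.248). WT-D replicate 1 was within the 3xTg-D range, WT-D replicate 2 was just below it, and WT-D replicates 3 and 4 were well above it. Astrocyte genes of the resting state had a median log2 fold change of 0.04 over 18 genes, 0 called by edgeR or DESeq2 and 1 at an unadjusted p under 0.05.

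**Figure D3:**
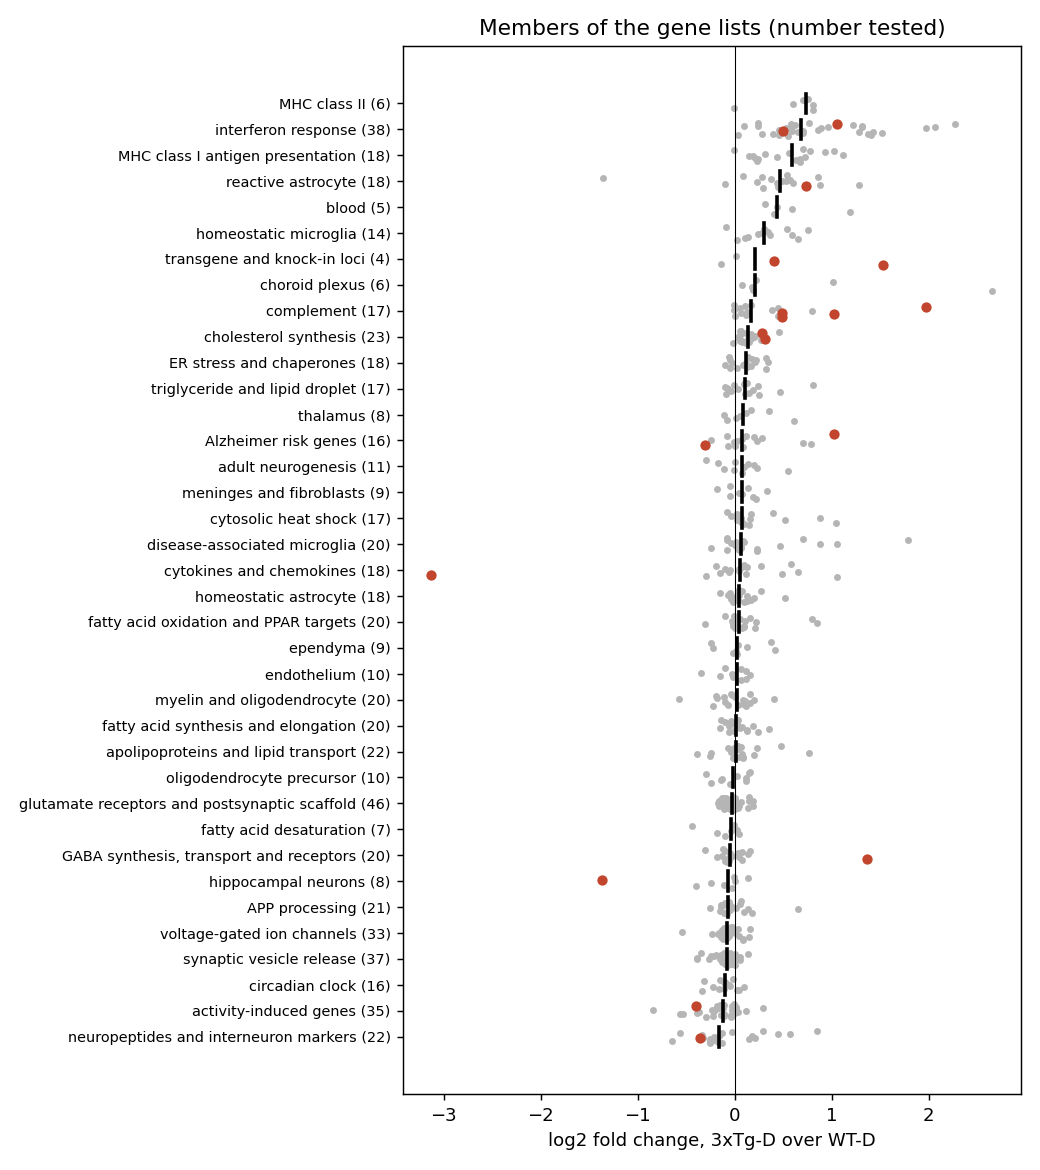
Log2 fold change of 3xTg-D over WT-D (horizontal axis) of each tested member of each gene list (points, called members in red), with the median of the list (black bar) and the number tested in brackets. Most immune lists lie to the right, among them MHC class II (0.73) and interferon response (0.68), and neuronal lists lie slightly to the left of 0.

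Neuronal lists lay slightly below 0. Among 35 genes induced by neuronal activity, 28 were below 0 with a median log2 fold change of -0.12, 9 were lower at an unadjusted p under 0.05 (6.87% over all genes) and 0 were higher. Vgf, a secreted peptide precursor, was the one called member and fell from 130.2, 132, 128 and 125 CPM in WT-D to 101, 94.2, 102 and 95.3 CPM in 3xTg-D (log2 fold change -0.39, SE 0.05, adjusted p = 0.000619). The values within each group were close together, so that a modest difference stood far outside the spread. Nr4a1, an immediate-early transcription factor, was at 40.9, 32.95, 45.5 and 35.7 CPM for WT-D and 34.8, 23.1, 24.6 and 22.6 CPM for 3xTg-D (log2 fold change -0.56, SE 0.14, adjusted p = 0.08). Bdnf, the neurotrophin, was at 64.00, 50.8, 65.6 and 60.1 CPM in WT-D, compared with 54.4, 39.3, 43.3 and 49.8 CPM in 3xTg-D (log2 fold change -0.37, SE 0.10, adjusted p = 0.131). Both overlapped between the groups through 3xTg-D replicate 1. Egr1, another early transcription factor, ranged from 81.9 to 150 CPM within WT-D and from 60.2 to 93.4 CPM within 3xTg-D, with a log2 fold change of -0.53 that was not called (adjusted p = 0.221).

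Interneuron markers and neuropeptides lay on both sides of 0, with 5 of 22 higher and 8 lower at an unadjusted p under 0.05. Pvalb, the calcium-binding protein of fast-spiking interneurons, was called, at 26.3, 26.6, 26.2 and 26.9 CPM in the 3xTg-D libraries and 34.1, 33.02, 37.01 and 31.6 CPM in the WT-D libraries (log2 fold change -0.36, SE 0.07, adjusted p = 0.0175). The call of Pvalb was lost when any 1 of 3xTg-D replicates 1, 2 and 4 was omitted (adjusted p = 0.0503 to 0.0624). Sst, the peptide of dendrite-targeting interneurons, was at 131, 158, 120.3 and 125 CPM in the WT-D libraries and 110.3, 107, 122 and 109 CPM in those of 3xTg-D (log2 fold change -0.25, SE 0.08, adjusted p = 0.191), and one 3xTg-D library lay within the WT-D range. Htr3a, a serotonin-gated channel found on another class of interneurons, was on the higher side at 6.004, 13.9, 7.62 and 8.99 CPM for WT-D and 15.2, 14.2, 18.3 and 17.7 CPM for 3xTg-D (log2 fold change 0.85, SE 0.20, adjusted p = 0.0696). Vip, a peptide of the same class, read 20.1, 22.8, 18.04 and 14.7 CPM in WT-D, compared with 25.6, 23.9, 38.9 and 23.6 CPM in 3xTg-D (log2 fold change 0.57, SE 0.17, adjusted p = 0.15). For Htr3a and Vip all 3xTg-D libraries were above all WT-D libraries.

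Inhibitory receptors held 1 called gene of 20 GABA genes. Gabra2, the alpha2 subunit of the GABA-A receptor, rose from 118, 205, 125 and 97.4 CPM in WT-D to 416, 375, 277 and 333 CPM in 3xTg-D (log2 fold change 1.36, SE 0.19, adjusted p = 0.00295). The groups did not overlap, and WT-D replicate 2 was well above its group. Gabrd, the delta subunit of extrasynaptic receptors, was at 21.9, 19.96, 18.8 and 22.5 CPM in the WT-D libraries and 15.7, 17.96, 17.3 and 16.3 CPM in those of 3xTg-D (log2 fold change -0.30, SE 0.08, adjusted p = 0.102), with no overlap. Of 46 genes of glutamate receptors and postsynaptic scaffold 0 were called by edgeR or DESeq2, 2 were higher and 4 lower at an unadjusted p under 0.05, and 33 were below 0 (median -0.02). Of 37 vesicle release genes 31 were below 0 with a median of -0.08, 0 were called by edgeR and 2 by DESeq2, and 9 were lower at an unadjusted p under 0.05. Cplx1, a complexin that controls fusion of vesicles, was at 416, 442, 443 and 456 CPM for WT-D and 382.7, 383.9, 367 and 398.5 CPM for 3xTg-D (log2 fold change -0.20, SE 0.05, adjusted p = 0.0718). In 6 of the 37 genes the 3xTg-D libraries were all below the WT-D libraries, Cplx1 among them (4.35% over all genes).

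C1ql2, a C1q-like secreted protein of the mossy fibre synapse, fell from 67.4, 50.7, 53.3 and 77.7 CPM in WT-D to 23.7, 22.5, 27.4 and 22.97 CPM in 3xTg-D (log2 fold change -1.37, SE 0.13, adjusted p = 0.000102). It belongs to the list of hippocampal neurons, in which it was the one called member of 8. Cntnap2, a neurexin-like adhesion molecule and a gene of the Alzheimer risk list, fell from 187, 184, 189 and 175 CPM in WT-D to 152, 159, 129 and 153 CPM in 3xTg-D (log2 fold change -0.31, SE 0.06, adjusted p = 0.0367). Both had no overlap between the groups. Of the 16 risk genes tested, Cntnap2 and C4b were the called members, 1 in each direction. Cntnap2 was no longer called once any 1 of 3xTg-D replicates 1 and 4 or WT-D replicates 1, 2 and 3 was left out (adjusted p = 0.0733 to 0.0867).

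Further neuronal genes that fell were chosen after their values were seen. Nav1, a microtubule-binding protein of growing axons, fell from 139.8, 134, 153 and 151 CPM in WT-D to 91.1, 101, 86.1 and 97.5 CPM in 3xTg-D (log2 fold change -0.62, SE 0.06, adjusted p = 0.000182). Kit, a receptor tyrosine kinase, fell from 118, 128, 146 and 139.8 CPM in WT-D to 93.2, 93.7, 90.2 and 82.6 CPM in 3xTg-D (log2 fold change -0.56, SE 0.07, adjusted p = 0.00106). Kcnip3, a calcium-binding subunit of A-type potassium channels, read 53.98, 60.8, 56.5 and 66.1 CPM in WT-D, compared with 41.8, 42.6, 39.03 and 44.2 CPM in 3xTg-D (log2 fold change -0.50, SE 0.07, adjusted p = 0.00295). In all of these the highest 3xTg-D library was below the lowest WT-D library. Chrm3, the M3 muscarinic receptor, fell by 0.34 and Sema7a, a semaphorin, by 0.41 on the log2 scale. In metabolism, Me3, the mitochondrial malic enzyme, fell from 77.99, 83.2, 81.98 and 79.5 CPM in WT-D to 46.1, 50.02, 41.4 and 48.1 CPM in 3xTg-D (log2 fold change -0.80, SE 0.06, adjusted p = 2.02e-05), and Mpc2, a subunit of the mitochondrial pyruvate carrier, fell by 0.29 on the log2 scale. Ret and Met, receptor tyrosine kinases, and Lypd1, a modulator of nicotinic receptors, were called higher, with log2 fold changes of 1.01, 0.59 and 0.46. Leaving out any 1 of 3xTg-D replicates 1, 2 and 4 or WT-D replicates 1, 3 and 4 ended the call of Met (adjusted p = 0.0723 to 0.134). The call of Mpc2 was lost when any 1 of 3xTg-D replicates 2, 3 and 4 or WT-D replicates 3 and 4 was omitted (adjusted p = 0.0509 to 0.0838).

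**Figure D4:**
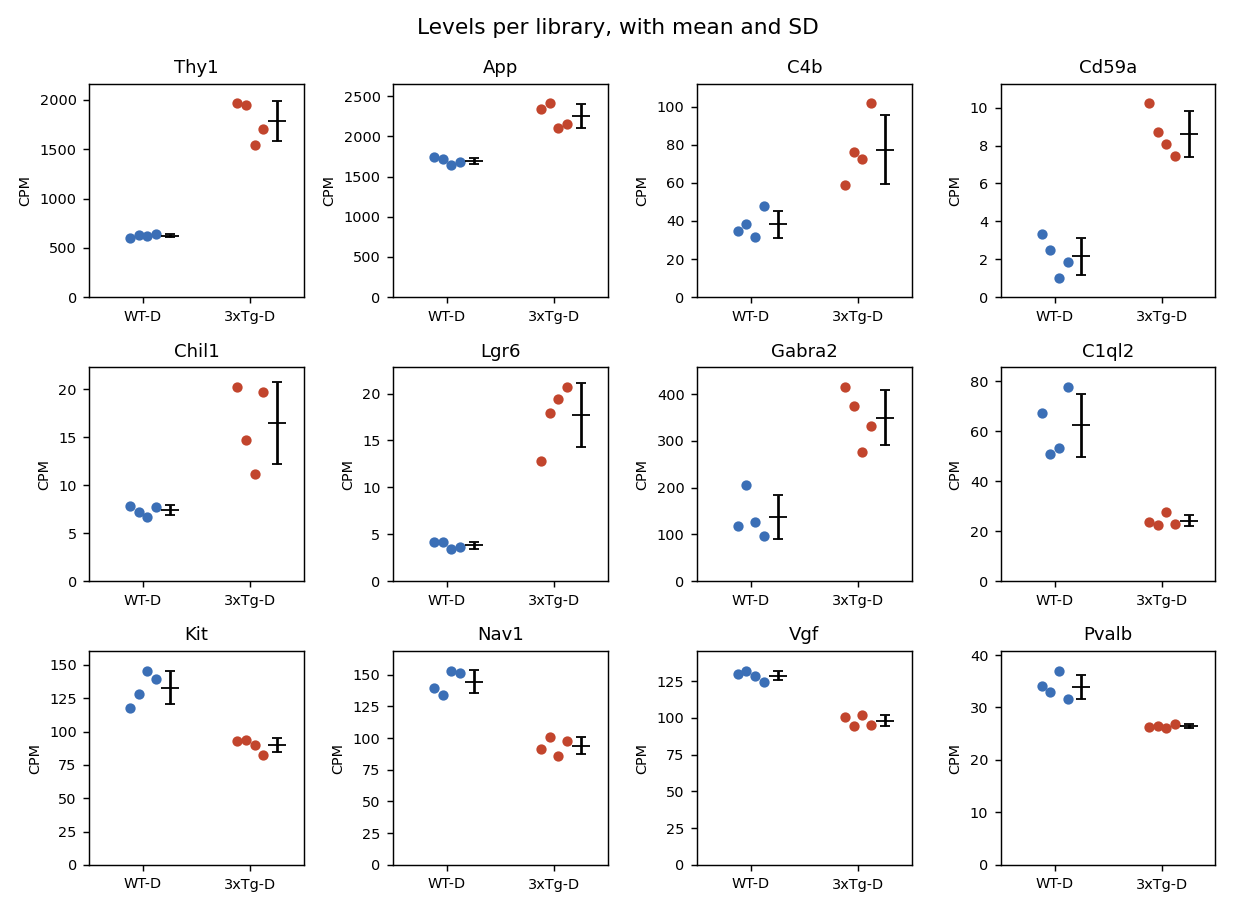
Level in CPM (vertical axis, from 0) of 12 called genes in the 4 WT-D and 4 3xTg-D libraries (points in order of replicate, 1 panel a gene), with the mean and SD of each group beside them. The groups do not overlap in any panel, and the gap in Thy1 and Vgf is wide beside the spread.

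Lipid genes were examined because the study concerns fatty acid desaturation. Cholesterol synthesis was the lipid list with called genes, with 22 of 23 tested members above 0, a median of 0.13 and 7 higher at an unadjusted p under 0.05. Msmo1, a sterol C4-methyl oxidase, was at 121, 109, 103 and 103 CPM in WT-D and, in 3xTg-D, 138, 132, 133 and 130.3 CPM (log2 fold change 0.29, SE 0.06, adjusted p = 0.027). Sc5d, the sterol C5-desaturase, was at 73.6, 84.7, 74.3 and 67.1 CPM in the WT-D libraries and 91.3, 97.6, 89.3 and 94.1 CPM in those of 3xTg-D (log2 fold change 0.31, SE 0.07, adjusted p = 0.0427). In both the groups did not overlap, though the shift was small. Msmo1 was no longer called once any 1 of 3xTg-D replicates 1, 2 and 4 or WT-D replicates 2, 3 and 4 was left out (adjusted p = 0.0586 to 0.0897). Leaving out any 1 of 3xTg-D replicates 1, 2 and 4 or WT-D replicates 1, 3 and 4 ended the call of Sc5d (adjusted p = 0.0824 to 0.132). Hmgcs1, the synthase at the head of the pathway, read 292, 254, 296 and 247 CPM for WT-D and 360.3, 352, 269 and 358 CPM for 3xTg-D (log2 fold change 0.30, SE 0.09, adjusted p = 0.177), and 3xTg-D replicate 3 lay within the WT-D range. The summed level of the list ran from 1285 to 1364 CPM in WT-D, below the range of 1443 to 1500 CPM found in 3xTg-D.

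Fatty acid desaturation genes gave 0 called of 7 tested by edgeR or DESeq2, with 1 lower at an unadjusted p under 0.05 and a median of -0.03. Scd1, stearoyl-CoA desaturase, was at 135, 129.9, 170.0 and 151 CPM in 3xTg-D, against 154, 168, 148 and 159.8 CPM in WT-D (log2 fold change -0.10, SE 0.08, adjusted p = 0.638), and the groups overlapped. In fatty acid synthesis and elongation 0 of 20 were called by either tool, with 3 higher and 2 lower at an unadjusted p under 0.05. Among genes of the endoplasmic reticulum stress response 0 of 18 were called by either tool and 7 were higher at an unadjusted p under 0.05. Hspa5, the chaperone BiP, read 328, 356, 304 and 327 CPM in WT-D, compared with 346, 357, 540.4 and 396.9 CPM in 3xTg-D (log2 fold change 0.32, SE 0.12, adjusted p = 0.267), and its highest value was that of 3xTg-D replicate 3. Of 16 clock genes 4 were lower at an unadjusted p under 0.05, 0 were called by edgeR and 1 by DESeq2.

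Of the cell type lists outside neurons and immune cells, blood had a median log2 fold change of 0.43 (5 of 5 tested markers above 0) and choroid plexus of 0.20 (6 of 6), with 0 blood markers at an unadjusted p under 0.05. The median was 0.02 over 20 myelin genes and -0.02 over 10 genes of oligodendrocyte precursors, and 0 of either were called by edgeR. Markers of the choroid plexus, which can stay attached to dissected hippocampus, had 6 of 12 genes tested, 0 called by edgeR or DESeq2 and 3 higher at an unadjusted p under 0.05. Their summed level was 219 to 246 CPM in WT-D, while the 3xTg-D libraries read 382.1, 239.5, 306 and 307 CPM. Ttr, transthyretin, read 9.97, 7.17, 3.47 and 8.004 CPM in WT-D against 74.6, 4.79, 80.8 and 21.6 CPM in 3xTg-D (log2 fold change 2.66, SE 0.66, adjusted p = 0.0806). Ttr was highest in 3xTg-D replicates 1 and 3. The part of attached choroid plexus in the other results was not tested.

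The genes with the largest fold changes among those of at least 5 CPM were of mixed kind. Lgr6, a receptor of R-spondins, rose from 4.14, 4.15, 3.41 and 3.63 CPM in WT-D to 12.8, 17.9, 19.4 and 20.7 CPM in 3xTg-D (log2 fold change 2.21, SE 0.15, adjusted p = 8.28e-06). Stbd1, a glycogen-binding protein, rose from 1.52, 6.97, 1.27 and 1.91 CPM in WT-D to 11.2, 11.3, 13.4 and 12.1 CPM in 3xTg-D (log2 fold change 2.06, SE 0.39, adjusted p = 0.0217), and its WT-D replicate 2 stood above the other WT-D libraries. Col6a4, a chain of collagen VI, and Klk1b22, a kallikrein, rose with log2 fold changes of 2.99 and 3.70, and the non-coding RNA AA465934 with 2.06. On the other side, Pla2g4e, a cytosolic phospholipase A2, fell from 32.4, 16.8, 31.6 and 23.6 CPM in WT-D to 3.53, 4.07, 3.11 and 4.59 CPM in 3xTg-D (log2 fold change -2.77, SE 0.21, adjusted p = 1.7e-05). Mcm6, a subunit of the replicative helicase, fell from 17.6, 14.9, 15.8 and 20.4 CPM in WT-D to 4.04, 4.33, 3.59 and 5.30 CPM in 3xTg-D (log2 fold change -1.997, SE 0.14, adjusted p = 8.28e-06). Pcdhga11, a clustered protocadherin that shares sequence with its neighbours, fell by 2.13, and the non-coding RNAs A830036E02Rik and A930005H10Rik by 6.54 and 1.64 on the log2 scale. The counts of Pcdhga11 and A830036E02Rik are uncertain through shared sequence. None of these groups overlapped. The call of Stbd1 was lost when any 1 of 3xTg-D replicates 1, 2 and 4 or WT-D replicates 1 and 4 was omitted (adjusted p = 0.0539 to 0.0656). AA465934 was no longer called once any 1 of 3xTg-D replicates 1, 2 and 4 or WT-D replicates 1 and 4 was left out (adjusted p = 0.0518 to 0.0595).

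The remaining large changes were in genes and processed copies that share sequence, whose counts are uncertain as well. Gm8423, a processed pseudogene, was at 7.57, 7.01, 6.39 and 6.08 CPM in the 3xTg-D libraries and 0, 0, 0 and 0.0616 CPM in the WT-D libraries, at least 35.6-fold higher. Rps3a3, a copy of a ribosomal protein gene, fell from 30.02, 33.02, 56.6 and 56.4 CPM in WT-D to 0.288, 0.328, 0.239 and 1.84 CPM in 3xTg-D. Gm6768, a copy that shares sequence with Ncoa4, fell by 4.62 on the log2 scale, and the sum of both was 13.9 ± 1.0 CPM (SD, n = 4) in WT-D against 13.7 ± 0.70 CPM (SD, n = 4) in 3xTg-D, a log2 ratio of -0.02. The copy was near 0 in 3xTg-D while the sum of the pair overlapped between the groups. Capza1 rose by 1.69 while its copy Gm3608 fell by 4.26 on the log2 scale, and their mean sum was 6.68 CPM for WT-D and 9.93 CPM for 3xTg-D. Eif3j1 rose by 1.54 while Eif3j2 fell by 3.95. Leaving out any 1 of 3xTg-D replicates 1, 2, 3 and 4 or WT-D replicate 1 ended the call of Eif3j1 (adjusted p = 0.0512 to 0.0969). Eif3s6-ps2 and Gm4202, further processed pseudogenes, fell by 4.17 and 2.65.

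Hspa8, the constitutive heat shock cognate, is a further case and was chosen after its values were seen. It read 104, 366, 110.3 and 112 CPM in WT-D and, in 3xTg-D, 368, 333, 369 and 352 CPM, while its copy Gm15459, of whose stretches of 50 bases 86.8% also occur in Hspa8, read 143, 1.54, 151 and 154 CPM in the WT-D libraries and 0.793, 0.852, 1.02 and 4.88 CPM in those of 3xTg-D. WT-D replicate 2 had the 3xTg-D values in both genes, and the other 3 WT-D libraries did not. The call of Gm15459 was lost when any 1 of 3xTg-D replicates 1 and 2 was omitted (adjusted p = 0.0561 to 0.0657). The sum of both genes was 247, 368, 262 and 267 CPM in WT-D, and 369, 334, 370.1 and 357 CPM in the libraries of 3xTg-D.

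**Figure D5:**
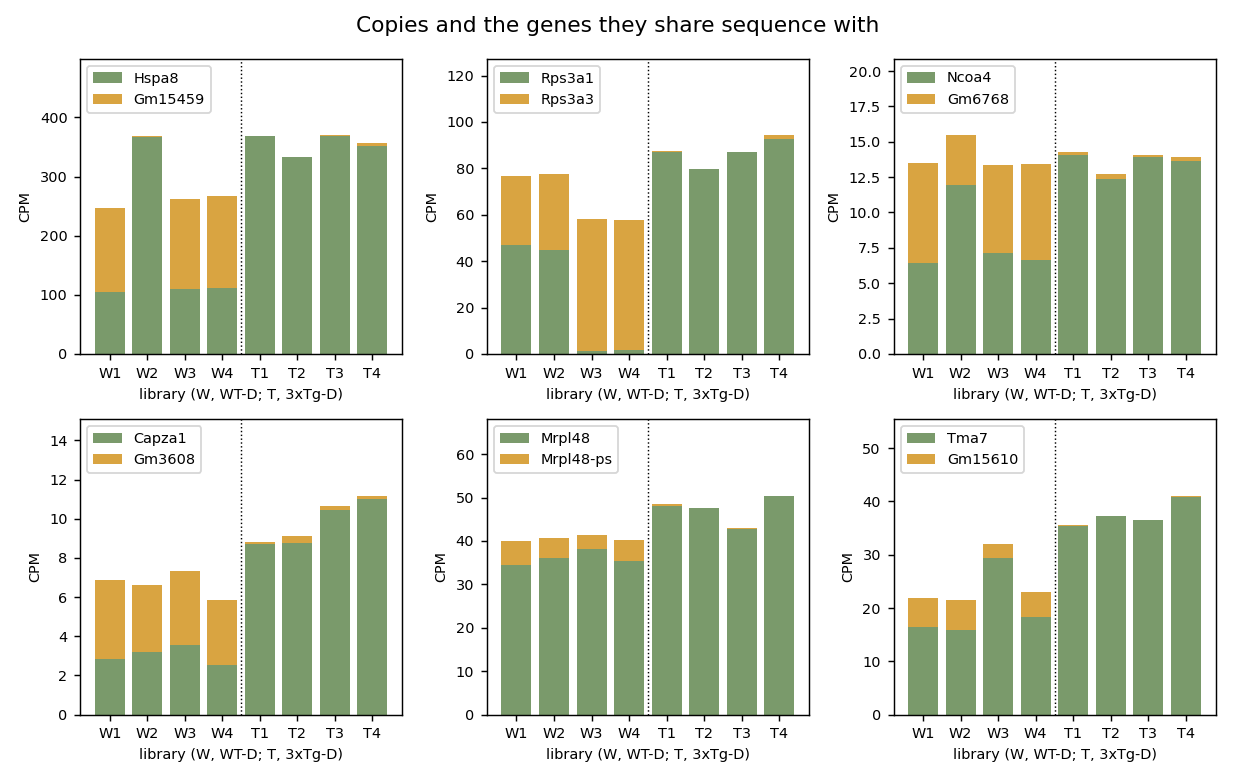
Level in CPM (vertical axis) of 6 genes (green) and of the copies they share sequence with (orange), stacked to their sum in each WT-D (W1 to W4) and 3xTg-D (T1 to T4) library. The copies are near 0 in every 3xTg-D library, and WT-D replicate 2 resembles 3xTg-D in Hspa8 and Gm15459.

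The positions of called genes on GRCm38 were counted. When chromosomes were divided into 273 windows of 10 Mb with tested genes, 101 held a called gene, and 14 windows with at least 4 called genes held 89 of the 216. The window from 60 to 70 Mb of chromosome 13 had 13 of its 72 tested genes called (18.1%, against 1.39% over all genes), 2 higher and 11 lower, among them the zinc finger genes Zfp457, Zfp429 and Zfp874a and the gene Rsl1, and the counts of Zfp429 and Rsl1 are uncertain through shared sequence. The window from 120 to 130 Mb of chromosome 1 had 5 of 32 (15.6%), C1ql2, Mcm6 and Lypd1 included. The window from 100 to 110 Mb of chromosome 7 had 8 of 87 (9.2%), which included the 3 Trim genes above. The window from 90 to 100 Mb of chromosome 5 had 5 of 47 (10.6%), with Stbd1 and Cxcl13. On chromosome 18, the window from 30 to 40 Mb had 11 of 152 (7.24%), Pcdhga11 included. On chromosome 7, the window from 80 to 90 Mb had 7 of 75 (9.33%), Me3 included. The windows named are examples, and others with at least 4 called genes are not listed. These counts are a description without a test. The study's methods name the 3xTg and WT mice as separate stocks, and whether their backgrounds differ was not tested. The part of the transgenes and of any difference in background cannot be told apart in this comparison.

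The same contrast of strains was measured in animals not used above, at 8 months without infusion and at 10 months under the inhibitor of stearoyl-CoA desaturase (SCDi). No library is common to these comparisons. Of the 216 called genes 196 were tested at 8 months, and 180 of them (91.8%) had the same direction, against 54.7% of all genes tested in both. Of these 88 were called at 8 months and 0 were called in the opposite direction, where 2.58% of all genes were called. Under the inhibitor 208 were tested, 207 (99.5%) had the same direction, against 65.7% of all genes, and 101 were called, where 1.32% of all genes were called. In all, 69 were called in all 3 comparisons. Signed by the direction under vehicle, the median log2 fold change of the called genes was 0.89 under vehicle, 0.52 at 8 months and 0.62 under the inhibitor. These medians cover 216, 196 and 208 genes in turn. The genes were selected by their call under vehicle, which favours larger values there, so the medians do not rank the comparisons by strength.

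Ccl27a fell in each comparison, by 3.13 under vehicle, 3.52 at 8 months and 3.06 under the inhibitor on the log2 scale. The count at Thy1, which can hold transgene reads, rose in each, with log2 fold changes of 1.52, 1.84 and 1.42. Kit fell by 0.56, 0.60 and 0.50, and Cd59a rose by 1.98, 0.87 and 1.69. Pvalb had log2 fold changes of -0.36 under vehicle, 0.07 at 8 months and -0.04 under the inhibitor. It was 1 of 23 called genes with an unadjusted p of at least 0.05 in both other comparisons, as were Chrm3, Mpc2, Irgm2 and Rbm43. For the interferon list the median log2 fold change was 0.68 under vehicle, 0.45 at 8 months and 0.42 under the inhibitor, and for MHC class I 0.59, 0.29 and 0.14. For reactive astrocyte genes it was 0.47, 0.22 and 0.28, for homeostatic microglia 0.31, 0.24 and 0.43, and for cholesterol synthesis 0.13, 0.10 and 0.11. Differences between these medians were not tested, and the comparison under the inhibitor had 3 wild-type and 4 3xTg libraries. Summed MHC class I genes were at 262.5, 278, 217 and 427 CPM in 3xTg-D replicates 1 to 4, so replicate 4 was the highest, as in the interferon sum.

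Interaction terms tested whether the effect of strain differed between comparisons. Between the untreated 8-month cohort and the vehicle cohort, which differ in age, infusion and cohort at once, the effect of strain differed in 10 of 16108 genes (0.0621%, with 1542 or 9.57% at an unadjusted p under 0.05 and 352 or 2.19% under 0.01), led by Rpl3, Tuba1c and Rpl3-ps1. Dbp, a transcription factor under clock control, was among them, with a log2 fold change of -0.34 under vehicle and 0.57 at 8 months (difference -0.91, adjusted p = 0.0162). Hddc3 was the only one of the 10 that was also called under vehicle, and its count is uncertain through shared sequence. Shared sequence was examined only for genes called under vehicle, so the others were not checked for it. Rpl3 and its pseudogene Rpl3-ps1 went in opposite directions at 8 months, with log2 fold changes of 3.07 and -4.475. Between vehicle and inhibitor the effect of strain differed in 0 of 16262 genes by edgeR and by DESeq2, with 377 at an unadjusted p under 0.05 (2.32%), 57 under 0.01 (0.351%) and a smallest adjusted p of 0.40. The 3 genes with the smallest p in that test were Rnf26, Rbm43 and Brpf3. Rbm43, an RNA-binding protein, read 14.9, 15.5, 17.3 and 14.98 CPM in 3xTg-D, against 22.9, 23.7, 27.7 and 24.7 CPM in WT-D (log2 fold change -0.66, SE 0.08, adjusted p = 0.00137), and its log2 fold change under the inhibitor was -0.09.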

How the data were processed

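Hippocampal RNA of 4 WT-D and 4 3xTg-D mice was analysed. The deposited values are raw counts of reads per gene, which the authors made, per the labels and the study's methods, from single-end reads of polyadenylated RNA by trimming with Trimmomatic 0.35 and aligning with STAR 2.5.1b to GRCm38. Whether the counting used strand is not given in the sources used here, so genes that overlap on opposite strands cannot be told apart. The 4 lines that name no gene held 24.7% to 26.0% of reads and were left out. Nothing in the labels says whether replicates of a group differ in litter or preparation, so p-values measure the spread between these libraries.

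Genes passing filterByExpr in the 8 libraries, with TMM factors, entered a quasi-likelihood fit in edgeR 4.0.16 (R 4.3.3), pairwise like the study's tests. A gene was called where its p, adjusted after Benjamini and Hochberg over all genes tested, was under 0.05. Standard errors are the log2 fold change divided by the square root of F. The tests were checked on simulated data. The other pairs of groups were fitted in the same way, and interactions over both pairs. A gene with at most 3 counts in each library of a group was at the floor, and bounds on its fold change, set against 3 counts per library, cover counting error only. Genes are marked as uncertain where at least 20% of their stretches of 50 bases occur in another gene, or of their exons overlap one. Genes annotated as pseudogenes are marked as well, whatever the share.

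Named genes are the 10 largest changes in each direction among called genes without overlap and with a mean of at least 5 CPM, called members of 38 gene lists, up to 4 members a list with the smallest p, the loci of the model, and the 3 smallest p of each interaction. Further genes are described outside these rules, among them Oasl2, Usp18, H2-D1, C1qc, Gfap, Serpina3n, Egr1, Sst and Vip. Members and lists were chosen with earlier results of these data known. Alternatives were DESeq2 1.42.0 size factors or likelihood ratio test, no filter, all 15 libraries of 10 months, an unadjusted p under 0.01, each library left out, and the replicate block, in which animals with 4 consecutive numbers share a block. Deviations from group means correlated within these runs with r of -0.092 to 0.059, so the runs were not taken as pairs. With so few runs these values cannot exclude a pairing. An allele of the 3xTg line and results at some genes are not reported here.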

Additional observations from a re-analysis of the deposited data

Results flagged for a closer look

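Of 122 tests for a single library far from the 3 others of its group, 11 were positive. The nominal share by chance is 5%, which does not hold at levels of a few reads. Cxcl13, Gm8423, Trim30d and Ctse were flagged at such levels, so the number of positives is not read as an excess. In WT-D, replicate 2 was apart in Stbd1 (6.97 CPM, against 1.27 to 1.91 in the others), in Ret (2.81 CPM, against 3.44 to 3.54) and in the copy Gm15459 (1.54 CPM, against 143 to 154). WT-D replicate 3 was apart in AA465934 (11.6 CPM, against 2.46 to 3.15) and in Ckmt1 (228.6 CPM, against 212 to 214). WT-D replicate 4 was apart in Cxcl13 at 0.246 CPM and in Gm8423 at 0.0616 CPM, and WT-D replicate 1 in Trim30d at 0.117 CPM and in Ctse at 0.0583 CPM, all levels of a few reads. In 3xTg-D, replicate 4 was apart in Rps3a3 (1.84 CPM, against 0.239 to 0.328) and in Gm15459 (4.88 CPM, against 0.793 to 1.02).

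The effect of strain differed between the vehicle cohort and the 8-month cohort in 10 genes by the interaction test in edgeR, given here as the log2 fold change under vehicle minus that at 8 months. The difference was -3.19 for Rpl3 (adjusted p = 4.47e-11), a ribosomal protein gene, and 4.73 for its pseudogene Rpl3-ps1 (adjusted p = 5.69e-07). Sequence shared between Rpl3 and Rpl3-ps1 was not examined. The difference was 6.75 for Tuba1c, a tubulin gene, 6.38 for Gm13886, 4.60 for Gm14150 and 2.92 for A730060N03Rik. It was -3.13 for Olfr287, -3.18 for 5830444B04Rik and -1.18 for Hddc3. For Dbp it was -0.91 (adjusted p = 0.0162). Age, infusion and cohort differ together in this test and cannot be told apart.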

How the results depend on the processing

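The 216 called genes became 792 with no filter on low counts, 402 by DESeq2's likelihood ratio test, 355 with all 15 libraries of 10 months and 769 at an unadjusted p under 0.01. The higher share of the calls, 45.8%, was 54.3%, 47.5%, 47.3% and 50.2% in these settings. With DESeq2 size factors they were 222, and with the replicate block, whose animal numbers the labels do not name as a pairing, 165. Leaving out 1 library gave 125 to 200 called genes, of which 38.9% to 49.7% were higher. Without 3xTg-D replicate 2 there were 51 higher and 74 lower, and without 3xTg-D replicate 4 there were 58 higher and 91 lower. Genes with the same sign at 8 months numbered 704, 368 and 636 with no filter, by DESeq2 and at an unadjusted p under 0.01, and 102 to 167 leaving out 1 library. Under the inhibitor they numbered 765, 399 and 733, and 115 to 188. The cohort interaction had 33, 20 and 352 genes in those settings and 6 to 17 leaving out 1 library, and the treatment interaction had 8 with no filter and 57 at an unadjusted p under 0.01. With no filter and by DESeq2, called members were 3 and 2 for hippocampal neurons, 8 and 1 for MHC class I, 30 and 7 for interferon response, 6 and 2 for homeostatic microglia, 4 and 1 for disease-associated microglia, 10 and 3 for reactive astrocyte, 1 and 1 for myelin, 4 and 2 for activity, 4 and 2 for vesicle release, 5 and 4 for neuropeptides, 2 and 1 for ion channels, 2 and 1 for fatty acid oxidation, 3 and 1 for apolipoproteins and 1 and 1 for the clock. With no filter alone they were 5 for cytokines, 3 each for heat shock and choroid plexus, 2 each for lymphocytes and ER stress, and 1 each for homeostatic astrocyte, oligodendrocyte precursor, blood and thalamus. Leaving out 1 library gave 2 to 4 called complement genes, 0 to 2 of MHC class I (7 to 12 at an unadjusted p under 0.05), 0 to 9 of interferon response (22 to 33), 0 to 3 of homeostatic microglia (2 to 12), 0 to 1 of reactive astrocyte (6 to 14), 1 to 2 of activity (6 to 11), 0 to 2 of neuropeptides (11 to 14) and 0 to 3 of cholesterol synthesis (4 to 7). The cause of these shifts was not tested.

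Of 59 called named genes, 38 were called in all 14 alternatives and 14 were lost in 6 or more. The log2 fold change changed sign for 7 uncalled genes. Leaving out 1 library, it ranged from -0.014 to 0.071 for Mapt, from -0.008 to 0.084 for Fads1, from -0.062 to 0.52 for Col1a2, from -0.003 to 0.30 for Zic1, from -0.478 to 0.155 for Col1a1, from -0.224 to 0.000 for Tek and from -0.175 to 0.831 for Hba-a1.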
